A study of Arabidopsis thaliana with 6 samples.

Results

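Kinesins are motor proteins that use ATP to move along microtubules or to take their ends apart. Flowering plants have a large kinesin family, with many members that build the spindle and the phragmoplast, the microtubule array that lays down the new wall between daughter cells. Other members act between divisions, in cell wall deposition, organelle positioning and trichome shape. The kinesin genes described here are the 47 genes, of 27947 in the deposited table, whose description contains the word kinesin. They were listed with 99 of the 45666 transcripts. Of these genes, 43 encode motors of the kinesin-4, kinesin-5, kinesin-7, kinesin-8, kinesin-10, kinesin-12, kinesin-13, kinesin-14 or ARK (armadillo-repeat) families, and 4 have no motor family. The 4 are AT2G31240, a putative kinesin light chain, AT3G13229, whose description also names a domain of unknown function, and AT4G24175 and AT5G55520, described only as kinesin-related.

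The study sequenced polyadenylated RNA of Arabidopsis thaliana from cdc5 plants (3 libraries) and from Col-0 wild-type plants (3 libraries), all labelled as rosette leaves and with no treatment named. The CDC5 protein is MYB-related and belongs to the spliceosome-associated MAC complex, and the series title ties it to transcription, splicing and the floral transition. The labels give neither the cdc5 allele nor the age of the plants. Titles number the libraries of each genotype, and for the mutant those numbers can also be read as allele names. No label says whether the libraries are of different plants. The p-values therefore reflect only how much these samples vary, which may be technical variation.

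Levels are FPKM, which divides fragments by transcript length and library total, and a gene's level is the sum over its transcripts. Depth, estimated from the steps between low values, was 20.1 to 25.7 M fragments in cdc5 and 19.3 to 23.9 M in Col-0. At those depths 3 fragments over 1 kb correspond to 0.117 to 0.149 FPKM in cdc5 and 0.126 to 0.156 FPKM in Col-0, limits that cover counting error only. CDC5 itself was listed at 21.8, 21.3 and 21.0 FPKM in cdc5, against 38.2, 37.0 and 36.1 FPKM in Col-0. It fell by 0.77 on the log2 scale (SE 0.04, limma adjusted p = 2.3e-06), so its transcript was reduced but present. The leaf markers summed to 9215 to 9524 FPKM in cdc5 and 7446 to 9053 FPKM in Col-0. Markers that leaves should lack were also present. All 5 flower markers averaged above 1 FPKM, with sums of 508.3 to 518.3 FPKM in cdc5 and 623.1 to 669.7 FPKM in Col-0, and 3 of them fell in cdc5. Both pollen markers fell, with sums of 256.9 to 259 FPKM in cdc5 and 442.5 to 449.1 FPKM in Col-0. Shoot meristem markers summed to 100.7 to 102.3 FPKM in cdc5 and 78.4 to 82.4 FPKM in Col-0, where STM and KNAT1 were higher in cdc5, WUS was lower and CLV3 was at or near 0. Of the 5 stomatal lineage markers, 4 were higher in cdc5, with sums of 29.9 to 32.1 FPKM in cdc5 and 22.8 to 25.5 FPKM in Col-0. In bulk tissue more cells of a type and more RNA per cell cannot be told apart. The part that these differences in markers had in the kinesin results was not tested.

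Of the 47 kinesin genes, 45 averaged 1 FPKM or more across all 6 libraries and were tested with all other such genes (limma on log2(FPKM + 1), adjusted p under 0.05 over 19778 genes). More kinesin genes were higher than lower in cdc5. A total of 27 rose, 2 fell and 16 did not pass, with a median log2 fold change of 0.17. Over all genes tested 33.3% rose and 22.4% fell, with a median of 0.06. Their levels ran from 1.31 FPKM for KIN14P to 42.2 FPKM for KIN4A in cdc5, and from 1.75 FPKM for KIN14P to 50.1 FPKM for KIN7F in Col-0. Both genes below 1 FPKM were lower in cdc5 than in any Col-0 library and were not tested. KIN7I (AT4G24170), a kinesin-7, was listed at 0.27, 0.07 and 0.15 FPKM in cdc5, against 0.50, 0.43 and 0.47 FPKM in Col-0. AT3G13229 was listed at 0.77, 0.42 and 0.48 FPKM in cdc5, against 1.499, 1.39 and 1.42 FPKM in Col-0.

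Kinesin transcripts are long, and long genes as a class lay higher in cdc5. The tested kinesin genes had a median length of 3434 nt (1243 to 6769 nt), against 1638 nt over all genes tested. The median log2 fold change of all genes was -0.08 under 1000 nt, 0.04 from 1000 to 2000 nt, 0.14 from 2000 to 3000 nt, 0.20 from 3000 to 4000 nt and 0.22 at 4000 nt or more. The kinesin genes had medians of 0.31, 0.14 and 0.20 in the last 3 of these classes (12, 22 and 10 genes). Among all genes of 2500 nt or more, 51.1% rose and 10.8% fell, with a median of 0.19. The 43 tested kinesin genes of that length had 25 that rose, 2 that fell and a median of 0.15. Their median lay below that of all genes of this length, and their share of rises was near the background of 51.1%. When length and GC content were adjusted for in each library, 11 kinesin genes rose, 10 fell and the median was -0.03, beside 28.0% and 25.3% of all genes. All 11 of these were among the 27. Cyclic loess scaling left 19 higher and 2 lower, with a median of 0.11. Over all 19778 genes it left 5197 higher and 5145 lower, with a median of 0.0073. Of the 3514 genes of 2500 nt or more it left 1359 higher and 511 lower, with a median of 0.11. The 43 kinesin genes of that length had 18 higher, 2 lower and a median of 0.10. How many of all genes were higher under every one of the 3 fits was not counted, and 9 kinesin genes were. They were AT5G55520, AT2G31240, KIN10A, KIN12E, KIN8A, KIN12A, KIN14D, KIN7A and KIN13B. The part of length and GC content in the individual results was not tested beyond this adjustment.

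**Figure D1:**
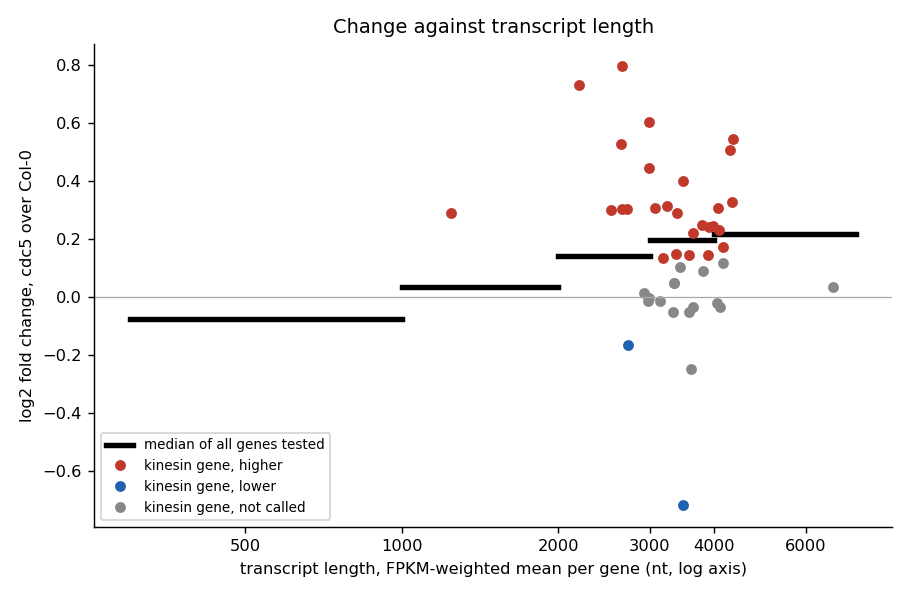
Log2 fold change of FPKM + 1 (cdc5 over Col-0) of the 45 tested kinesin genes against transcript length in nt on a log axis, with black bars for the median of all genes tested in each length class. The bars climb with length, to 0.22 at 4000 nt or more, and most kinesin genes lie in the long classes.

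**Figure D2:**
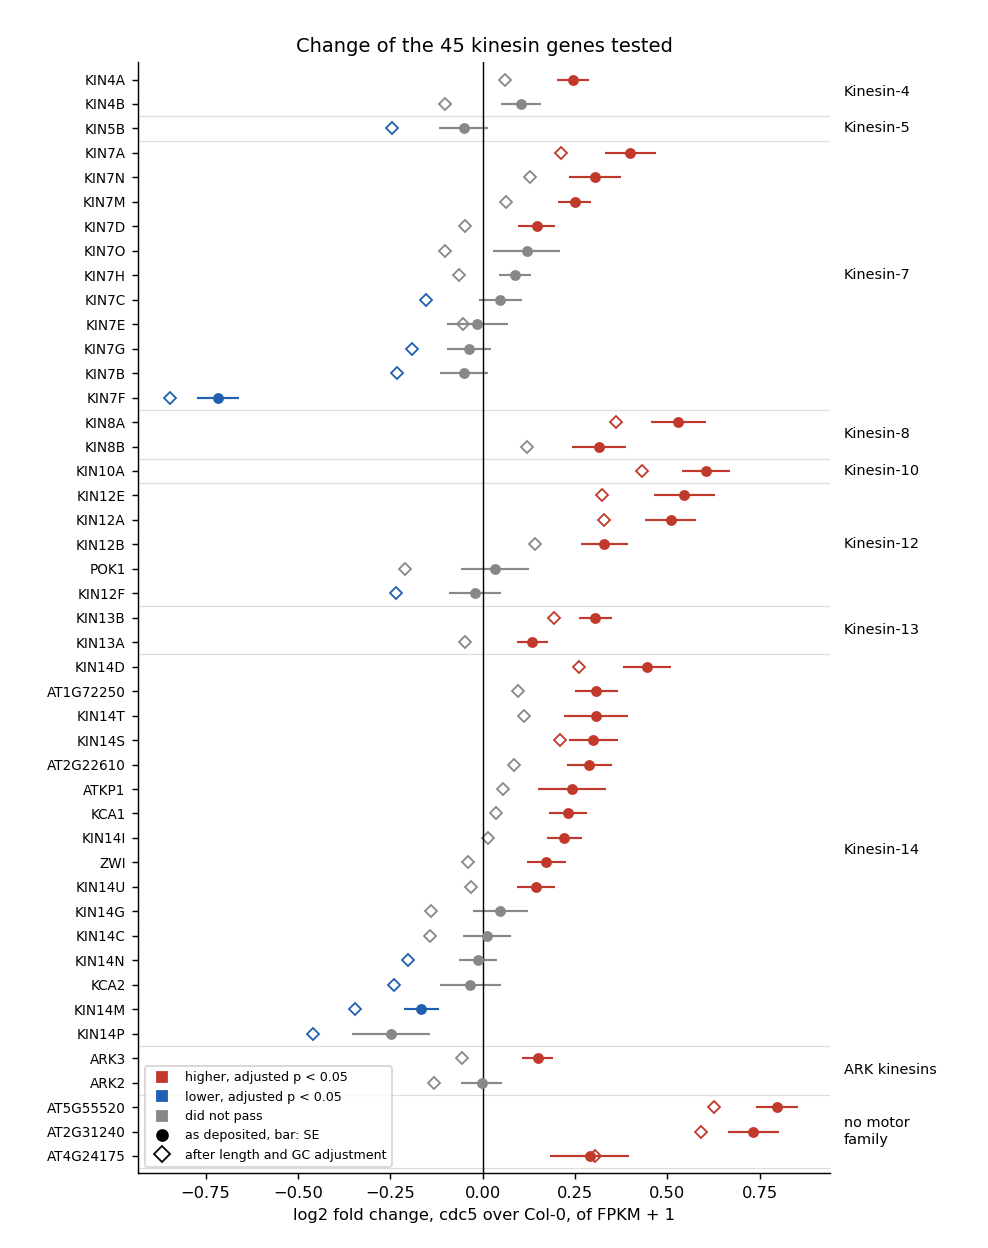
Log2 fold change (cdc5 over Col-0) of each tested kinesin gene by family, where filled circles are the values as deposited with bars for the SE and open diamonds are the values after the length and GC adjustment. Of the 45 genes 27 circles are called higher and 2 lower, and every diamond except that of AT4G24175 lies to the left of its circle.

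Of the motors known from cytokinesis, KIN10A, KIN12A, KIN12B and KIN7A rose, while POK1 and KIN7B did not pass. KIN10A (PAKRP2, AT4G14330, chr4:8244053-8247494), a phragmoplast kinesin, was at 13.9, 13.1 and 12.7 FPKM in cdc5, against 7.79, 8.40 and 8.87 FPKM in Col-0. Every cdc5 library lay above every Col-0 library. KIN10A rose by 0.60 (SE 0.07, adjusted p = 8.9e-05) on the log2 scale and by 0.43 after the length and GC adjustment, the largest among the motors in both fits. KIN12A (PAKRP1, AT4G14150, chr4:8158436-8165214), which sits at the midline of the phragmoplast, was at 6.75, 6.85 and 6.50 FPKM in cdc5, against 4.59, 4.23 and 4.42 FPKM in Col-0. The groups were again apart, by 0.51 (SE 0.07, adjusted p = 3.0e-04). KIN12B (PAKRP1L, AT3G23670, chr3:8519136-8525289), its close relative with an overlapping role, was at 11.01, 9.73 and 10.04 FPKM in cdc5, against 7.79, 8.00 and 8.07 FPKM in Col-0. It rose by 0.33 (SE 0.06, adjusted p = 0.0023), a call lost after the length and GC adjustment (0.14, adjusted p = 0.085). KIN7A (HINKEL, AT1G18370, chr1:6319450-6324378), which activates the MAP kinase cascade that drives phragmoplast expansion, was at 15.7, 15.9 and 17.3 FPKM in cdc5, against 13.3, 11.6 and 11.5 FPKM in Col-0. It rose by 0.40 (SE 0.07, adjusted p = 0.0012) and by 0.21 after the length and GC adjustment.

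The remaining motors with division roles in the kinesin-7 and kinesin-12 families did not all move this way. KIN12E (AT3G44050, chr3:15818511-15825111), a kinesin-12, was at 7.56, 7.71 and 7.85 FPKM in cdc5, against 4.57, 4.74 and 5.63 FPKM in Col-0. Col-0 replicate 3 was the highest of its group and still lay below all cdc5 libraries, and the gene rose by 0.55 (SE 0.08, adjusted p = 5.3e-04). POK1, which marks the division plane, averaged 3.51 ± 0.16 FPKM in cdc5 and 3.41 ± 0.38 FPKM in Col-0 (SD, n = 3 each), with overlapping libraries and a log2 fold change of 0.03 (SE 0.09). KIN12F averaged 6.51 ± 0.49 FPKM in cdc5 and 6.61 ± 0.17 FPKM in Col-0, also overlapping. KIN7B (TETRASPORE), a close relative of KIN7A that acts in cytokinesis after male meiosis, averaged 7.19 ± 0.33 FPKM in cdc5 and 7.48 ± 0.28 FPKM in Col-0, and its libraries overlapped as well. None of these last 3 passed the test, and after the length and GC adjustment KIN12F and KIN7B were called lower, with log2 fold changes of -0.23 each.

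**Figure D3:**
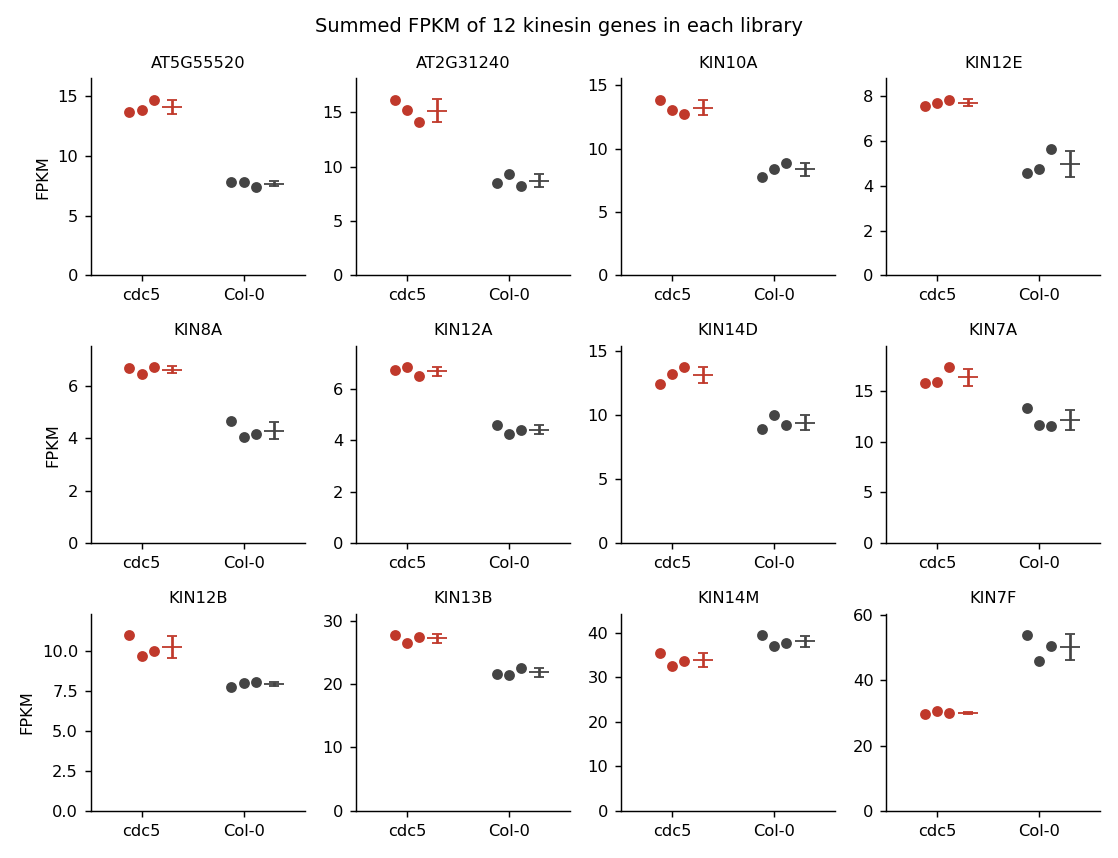
Summed FPKM of 12 kinesin genes in each library (points), with the mean and SD of each genotype beside them (n = 3). In 10 panels all cdc5 points lie above all Col-0 points, and in the panels of KIN14M and KIN7F they lie below.

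The promoters of 3 of these phragmoplast kinesins are printed because many genes of the G2 and M phases carry MSA elements, which MYB3R transcription factors bind and whose core is AACGG. Each sequence is the 250 bases upstream of the most upstream annotated transcript start, 5′ to 3′ on the strand of the gene, read from the RefSeq TAIR10.1 genome. Capitals mark AACGG and its reverse complement CCGTT, the only motif searched.
KIN12B, chr3:8518886-8519135, plus strand: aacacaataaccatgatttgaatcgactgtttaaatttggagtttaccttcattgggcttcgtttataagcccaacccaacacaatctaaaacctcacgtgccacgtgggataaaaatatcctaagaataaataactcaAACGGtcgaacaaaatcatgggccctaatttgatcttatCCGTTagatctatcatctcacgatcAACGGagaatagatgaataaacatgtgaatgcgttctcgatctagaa
KIN12A, chr4:8165215-8165464, minus strand: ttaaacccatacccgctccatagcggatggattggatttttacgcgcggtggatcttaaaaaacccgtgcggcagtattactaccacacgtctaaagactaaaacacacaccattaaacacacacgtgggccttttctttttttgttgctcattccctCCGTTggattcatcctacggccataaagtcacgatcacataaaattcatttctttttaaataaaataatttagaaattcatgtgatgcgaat
KIN7A, chr1:6324379-6324628, minus strand: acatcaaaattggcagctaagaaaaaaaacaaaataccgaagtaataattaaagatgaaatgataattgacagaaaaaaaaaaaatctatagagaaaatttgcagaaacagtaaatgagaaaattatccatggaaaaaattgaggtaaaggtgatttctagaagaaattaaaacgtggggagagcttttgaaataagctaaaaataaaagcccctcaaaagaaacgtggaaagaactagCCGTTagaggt
The KIN12B window held 3 matches, on both strands, and the windows of KIN12A and KIN7A held 1 each. The windows of KIN10A and KIN12E, which rose, and of POK1 and KIN12F, which did not pass, held none. That of KIN7B, which did not pass, held 2.

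Over the 47 kinesin genes, 22 windows (46.8%) held at least 1 match on either strand, against 5241 of 25013 windows of protein-coding genes (21%). At least 2 matches were found in 8 kinesin windows (17%) and in 925 of all windows (3.7%). The share was 16 of 27 (59.3%) for kinesin genes that rose and 6 of 20 (30%) for the others, 2 of them not tested. Among the 11 genes that also rose after the length and GC adjustment it was 4 of 11 (36.4%), and none of these windows held 2 or more. In the list of 35 genes of mitosis and cytokinesis described below it was 16 (45.7%), with 2 or more matches in 10 (28.6%). These shares describe letters in a window and say nothing of binding.

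Of the spindle motors, KIN14D rose while its relatives did not pass or fell. KIN14D (ATK5, AT4G05190, chr4:2675064-2680214), a minus-end-directed motor needed for focused spindle poles, was at 12.4, 13.2 and 13.7 FPKM in cdc5, against 8.91, 10.1 and 9.22 FPKM in Col-0. The groups did not overlap, and the gene rose by 0.44 (SE 0.07, adjusted p = 4.9e-04). It overlaps CRK25 on the opposite strand by 492 bases, and CRK25 averaged 0.05 FPKM in cdc5 and 0.10 FPKM in Col-0. The part of this overlap in the rise of KIN14D was not tested. KIN14C (ATK1), its close relative in spindle assembly, averaged 10.1 ± 0.55 FPKM in cdc5 and 10.03 ± 0.55 FPKM in Col-0 (SD, n = 3 each). KIN14N (ATK3) averaged 17.7 ± 0.55 FPKM in cdc5 and 17.9 ± 0.67 FPKM in Col-0. The libraries of both genes overlapped between genotypes. KIN14M (ATK2, AT4G27180, chr4:13614822-13619312) was at 35.6, 32.6 and 33.6 FPKM in cdc5, against 39.5, 37.1 and 37.8 FPKM in Col-0, with no overlap. It fell by 0.17 on the log2 scale (SE 0.05, adjusted p = 0.015), a call lost without cdc5 replicate 2 (adjusted p = 0.056). KIN5B, of the bipolar kinesin-5 motors that push spindle poles apart, averaged 5.73 ± 0.26 FPKM in cdc5 and 5.97 ± 0.07 FPKM in Col-0 and did not pass. The other kinesin-5 genes have descriptions without the word kinesin. Of these, AT2G28620 and AT2G36200 rose by 0.31 and 0.33, calls lost after the length and GC adjustment. AT3G45850 did not pass (0.08) and was called lower after the adjustment (-0.13). After the length and GC adjustment KIN14N and KIN5B were called lower, at -0.20 and -0.25.

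Both kinesin-8 genes and both kinesin-13 genes rose, but after the length and GC adjustment only KIN8A and KIN13B did. Members of these families shorten microtubules from their ends in animals and yeasts. KIN8A (AT1G18550, chr1:6381441-6384587) was at 6.70, 6.47 and 6.71 FPKM in cdc5, against 4.67, 4.05 and 4.15 FPKM in Col-0. The genotypes did not overlap, and KIN8A rose by 0.53 (SE 0.07, adjusted p = 3.7e-04), while KIN8B rose by 0.31 (SE 0.07) and by 0.12 with no call after the adjustment (adjusted p = 0.18). KIN13B (AT3G16060) was at 27.7, 26.4 and 27.5 FPKM in cdc5, against 21.5, 21.4 and 22.6 FPKM in Col-0, a rise of 0.30 (SE 0.05, adjusted p = 5.1e-04). KIN13A, which acts at the Golgi and limits trichome branching, averaged 34.2 ± 0.15 FPKM in cdc5 and 31.1 ± 1.23 FPKM in Col-0. Its rise of 0.13 (SE 0.04, adjusted p = 0.025) turned to -0.05 with no call after the length and GC adjustment, was lost under cyclic loess scaling (adjusted p = 0.057) and was lost when any one of cdc5 replicates 1, 2 or 3 or Col-0 replicates 2 or 3 was left out (adjusted p = 0.057 to 0.084).

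Genes without a motor family held the largest rises of the list. AT5G55520 (chr5:22488054-22491300) was at 13.7, 13.8 and 14.7 FPKM in cdc5, against 7.77, 7.81 and 7.42 FPKM in Col-0. The lowest cdc5 library was far above the highest Col-0 library, and the gene rose by 0.80 (SE 0.06, adjusted p = 9.6e-06). AT2G31240, the putative light chain (chr2:13317271-13319560), was at 16.2, 15.2 and 14.1 FPKM in cdc5, against 8.53, 9.38 and 8.26 FPKM in Col-0, a rise of 0.73 (SE 0.07, adjusted p = 4.6e-05). Light chains link kinesin-1 motors to cargo in animals. After adjustment for length and GC content these were still the largest rises, at 0.63 for AT5G55520 and 0.59 for AT2G31240. The 3 light chain-related genes whose descriptions lack the word kinesin did not pass, with log2 fold changes of -0.23 to -0.05. Every cdc5 library of KLCR2 lay below every Col-0 library. KLCR2 was called lower after the length and GC adjustment (-0.40, limma adjusted p = 0.016) and under cyclic loess scaling (-0.33, adjusted p = 0.032). KLCR1 and AT1G27500 were called in neither fit. AT4G24175 averaged 5.85 ± 0.65 FPKM in cdc5 and 4.61 ± 0.61 FPKM in Col-0, a rise of 0.29 (SE 0.11, adjusted p = 0.044). That call was lost when any one of cdc5 replicates 1 or 2 or Col-0 replicates 1 or 2 was left out (adjusted p = 0.051 to 0.14). It was also lost under cyclic loess scaling (limma adjusted p = 0.16).

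Among the 45 tested genes, the largest fall on the log2(FPKM + 1) scale was that of KIN7F (AT4G38950, chr4:18154395-18160158), a kinesin-7. It was at 29.7, 30.5 and 30.0 FPKM in cdc5, against 53.8, 46.0 and 50.6 FPKM in Col-0. The cdc5 libraries were within 1 FPKM of each other and all lay below the lowest Col-0 library. KIN7F fell by 0.72 on the log2 scale (SE 0.06, adjusted p = 1.6e-05) and by 0.85 after the length and GC adjustment. Its main transcript, AT4G38950.1, carried 89.0% ± 6.8 of the gene's FPKM in cdc5 and 88.5% ± 1.1 in Col-0, and its usage test did not pass (adjusted p = 0.81). Of the 11 tested kinesin-7 genes 4 rose and KIN7F fell, a share of rises near the 33.3% of all genes and below the 51.1% of long genes. After the length and GC adjustment 1 rose and 4 fell, beside 28.0% and 25.3% of all genes. Apart from KIN7A, the 4 included KIN7M at 24.5 ± 0.05 FPKM in cdc5 and 20.5 ± 0.68 FPKM in Col-0, a rise of 0.25 (SE 0.04, adjusted p = 0.0014). KIN7N rose by 0.30 (SE 0.07) and KIN7D by 0.15 (SE 0.05). None of KIN7M (0.06), KIN7N and KIN7D was called after the length and GC adjustment. Besides KIN7B and KIN7E, the kinesin-7 genes that did not pass were KIN7C, KIN7G, KIN7H and KIN7O, with log2 fold changes of 0.05, -0.04, 0.09 and 0.12. Of these, KIN7C and KIN7G were called lower after the adjustment, at -0.15 and -0.19.

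The next genes were chosen for their known work outside division after their values were seen. KIN4A (FRA1, AT5G47820, chr5:19366133-19372815), which is needed for ordered cellulose deposition in the cell wall, was at 43.3, 42.8 and 40.5 FPKM in cdc5, against 36.3, 34.1 and 36.0 FPKM in Col-0. It rose by 0.24 (SE 0.04, adjusted p = 0.0015), and by 0.06 with no call after the length and GC adjustment (adjusted p = 0.22). KCA1, which with KCA2 holds chloroplasts at the plasma membrane, averaged 22.1 ± 0.50 FPKM in cdc5 and 18.7 ± 0.95 FPKM in Col-0, a rise of 0.23 (SE 0.05, adjusted p = 0.0047). KCA2 averaged 10.4 ± 1.03 FPKM in cdc5 and 10.7 ± 0.79 FPKM in Col-0 and did not pass. ZWI, the calmodulin-binding kinesin that shapes trichomes, averaged 14.1 ± 0.54 FPKM in cdc5 and 12.4 ± 0.22 FPKM in Col-0, a rise of 0.17 (SE 0.05, adjusted p = 0.021). ARK3 averaged 29.4 ± 0.65 FPKM in cdc5 and 26.5 ± 0.44 FPKM in Col-0, a rise of 0.15 (SE 0.04, adjusted p = 0.013). The calls of KCA1, ZWI and ARK3 were lost after the length and GC adjustment, where ZWI and ARK3 were at -0.04 and -0.06. In the whole kinesin-14 family, which is unusually large in plants, 10 of 16 genes rose and 1 fell, beside 51.1% and 10.8% of all genes of 2500 nt or more. After the length and GC adjustment 2 rose and 4 fell, with a median of -0.0081, beside 28.0% and 25.3% of all genes. Those not yet named included KIN14S at 0.30 (SE 0.07), still called after the adjustment (adjusted p = 0.032) but not under cyclic loess scaling (adjusted p = 0.051), and AT1G72250 at 0.31 (SE 0.06), no longer called (adjusted p = 0.18). KIN14I, KIN14T, AT2G22610 and ATKP1 rose by 0.22, 0.31, 0.29 and 0.24, the last with an adjusted p of 0.0499, and none of them held after the adjustment. KIN14P at -0.25 and KIN14G at 0.05 did not pass, nor did KIN4B at 0.10 and ARK2 at -0.0026. Every cdc5 library of KIN14P lay below every Col-0 library. The kinesin-14 genes called lower after the adjustment were KIN14P, KIN14M, KCA2 and KIN14N, at -0.46, -0.34, -0.24 and -0.20.

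Most listed genes that work beside kinesins in division rose. In a list of 35 genes of mitosis and cytokinesis 25 rose and none fell, beside 33.3% and 22.4% of all genes, with a median log2 fold change of 0.31. After the length and GC adjustment 21 rose and 4 fell, beside 28.0% and 25.3% of all genes. CYCA1-1, an A-type cyclin, averaged 20.8 ± 0.29 FPKM in cdc5 and 12.2 ± 0.79 FPKM in Col-0 (SD, n = 3 each), a rise of 0.73 (SE 0.06, adjusted p = 1.4e-05). The mitotic cyclins CYCB1-2, CYCB2-3 and CYCB2 rose by 0.46, 0.53 and 0.69. CYCB1-2, the highest of the 3, averaged 41.7 ± 1.81 FPKM in cdc5 and 30.1 ± 0.97 FPKM in Col-0. The meristem markers STM and KNAT1 and 4 of the 5 stomatal lineage markers were also higher in cdc5, while WUS was lower, and their part in these rises was not tested. A further 18 kinesin motor genes carry descriptions without the word kinesin. Of the 15 tested, 6 rose and 2 fell, beside 33.3% and 22.4% of all genes. The median length of the 18 was 3517 nt, and of all genes of 2500 nt or more 51.1% rose and 10.8% fell. After the length and GC adjustment 1 of these motors rose and 6 fell, beside 28.0% and 25.3% of all genes.

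Of 15 tubulin genes, which encode the tracks, none rose and 7 fell, beside 33.3% of all genes that rose and 22.4% that fell. The median was -0.10. After the length and GC adjustment 1 tubulin gene rose and 9 fell, beside 28.0% and 25.3% of all genes. Under cyclic loess scaling 3 rose and 4 fell, with a median of -0.0019, beside 5197 and 5145 of all 19778 genes. TUBB6 averaged 88.9 ± 1.98 FPKM in cdc5 and 124.9 ± 1.34 FPKM in Col-0, and fell by 0.49 on the log2 scale (SE 0.03, adjusted p = 6.4e-06). TUBB5 fell by 0.57, TUBA1 by 0.38 and TUBB4 by 0.13, the last with no call under cyclic loess scaling (-0.03, adjusted p = 0.48). TUBB5 averaged 51.6 ± 2.99 FPKM in cdc5 and 76.8 ± 1.34 FPKM in Col-0. Of 16 myosin genes, motors that run on actin, 1 rose and 3 fell, beside 33.3% and 22.4% of all genes. Their median length was 5059 nt, and of all genes of 2500 nt or more 51.1% rose and 10.8% fell. Beside that class the myosin share of falls was above and that of rises below. After the length and GC adjustment no myosin gene rose and 9 fell, beside 28.0% and 25.3% of all genes. XI-E averaged 3.92 ± 0.19 FPKM in cdc5 and 6.05 ± 0.42 FPKM in Col-0, a fall of 0.52 (SE 0.08, adjusted p = 5.5e-04), and XI-C fell by 0.54. VIIIB fell by 0.26 (adjusted p = 0.030) and XI-H rose by 0.20 (adjusted p = 0.032), and leaving out single libraries took both calls away (adjusted p up to 0.10 for VIIIB and up to 0.11 for XI-H).

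Transcript mixtures changed in a few kinesin genes. Of the 47 genes 32 had at least 2 listed transcripts, 21 could be tested for usage and 6 passed (limma diffSplice, Simes p adjusted over 5456 genes). That share was near the 25.9% of all genes that passed. The 6 were ARK3 (adjusted p = 3.5e-05), KIN14U (4.9e-05), KIN7E (4.3e-04), KIN4A (0.0020), KCA1 (0.024) and KIN7H (0.036). As single transcripts, 20 of 72 tested rose and 4 fell, beside 17.8% and 13.2% of all transcripts. FPKM of transcripts that share most of their bases depend on how the authors' software divided the fragments. For KIN4B, AT3G50240.1 was listed at 13.8, 3.41 and 0.46 FPKM in cdc5, and at 5.93, 0.65 and 11.98 FPKM in Col-0. Such swings within a genotype show how uncertain single transcripts can be.

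**Figure D4:**
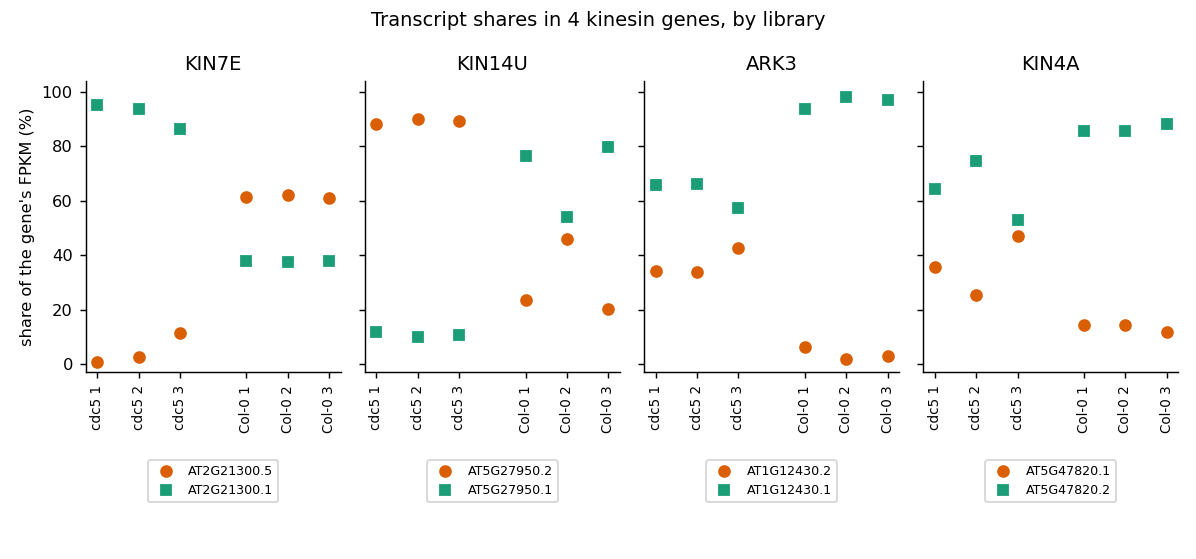
Share of the gene's summed FPKM (%) carried by each of 2 transcripts of KIN7E, KIN14U, ARK3 and KIN4A in every library, with cdc5 left of Col-0. The orange transcript is lower in cdc5 in the KIN7E panel and higher in cdc5 in the other panels, with no overlap between genotypes.

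The sequences that separate these transcripts are shown 5′ to 3′ on the strand of each gene, from the TAIR10.1 genome, in which all 99 kinesin transcripts had the same span and exonic length as in the deposited table. Capitals mark bases that one transcript of a pair removes as an intron, and for KIN7E and KIN4A only the outer bases of that intron are given. For KIN14U, ARK3, KCA1 and KIN4A the other transcript keeps them, while in KIN7E the other transcript starts inside the intron and lacks its donor side.
KIN14U intron, chr5:9985323-9985464, plus strand: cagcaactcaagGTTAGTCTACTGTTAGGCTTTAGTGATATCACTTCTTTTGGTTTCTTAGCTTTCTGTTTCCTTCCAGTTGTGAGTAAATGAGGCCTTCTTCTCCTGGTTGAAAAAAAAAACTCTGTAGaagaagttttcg
ARK3 acceptor, chr1:4234481-4234522, minus strand: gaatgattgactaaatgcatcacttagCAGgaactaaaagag
KCA1 acceptor, chr5:3292817-3292858, minus strand: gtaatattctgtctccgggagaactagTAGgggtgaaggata
KIN4A last intron, donor, chr5:19372321-19372345, plus strand: gtgggtgcagGTAATTTATCAATCC
KIN4A last intron, acceptor, chr5:19372405-19372429, plus strand: GTTCATGCACGACAGagattagact
KIN7E first intron, donor, chr2:9119751-9119775, minus strand: gacgaagaagGTAATGTACTGTGAT
KIN7E first intron, acceptor, chr2:9119333-9119357, minus strand: TGGTGGATGTTTCAGattagaggag

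KIN14U, a kinesin-14, changed which transcript led. AT5G27950.1, which splices out the 118-base intron in capitals, carried 11.9%, 9.91% and 10.6% of the gene's FPKM in cdc5, against 76.3%, 54.0% and 79.8% in Col-0. The lowest Col-0 library, replicate 2, was still far above every cdc5 library. Its level was 1.48 ± 0.10 FPKM in cdc5 and 8.64 ± 1.69 FPKM in Col-0, a fall of 1.94 on the log2 scale (SE 0.16, limma adjusted p = 0.0011). AT5G27950.2, which keeps the intron, was at 12.3 ± 0.43 FPKM in cdc5 and 3.71 ± 1.75 FPKM in Col-0, a rise of 1.56 (SE 0.26, adjusted p = 0.0094). The annotated coding region of AT5G27950.2 starts downstream of the intron and has 1380 bases, against 1878 in AT5G27950.1, or 166 codons fewer. AT5G27950.2 also ends 949 bases earlier, so fragments from the 3′ end bear on the split as well as those over the intron. The summed level of KIN14U averaged 13.7 ± 0.33 FPKM in cdc5 and 12.3 ± 0.31 FPKM in Col-0, a rise of 0.14 (SE 0.05, adjusted p = 0.040). That rise of the sum was lost when any single library was left out (adjusted p = 0.052 to 0.11).

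In KIN7E, a kinesin-7, the transcripts traded places while the gene's sum differed by less than the spread between libraries. AT2G21300.5 carried 0.59%, 2.53% and 11.5% of the FPKM in cdc5, against 61.6%, 62.1% and 60.9% in Col-0. AT2G21300.1 carried 95.2%, 93.7% and 86.2% in cdc5, against 37.9%, 37.4% and 37.7% in Col-0. The shares in Col-0 were within 2 percentage points of each other, and those in cdc5 spread more widely because of replicate 3. The gene's sum was 39.5 ± 1.32 FPKM in cdc5 and 40.1 ± 4.85 FPKM in Col-0, with a log2 fold change of -0.02 (SE 0.08). AT2G21300.1 starts 566 bases upstream of AT2G21300.5 and removes a 423-base intron in its 5′ leader, where AT2G21300.5 begins. Their 3′ ends differ by 123 bases and their coding regions of 2589 bases do not differ in length.

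ARK3 and KIN4A gained a transcript that was minor in Col-0. AT1G12430.2 of ARK3 carried 34.3%, 33.9% and 42.8% of the FPKM in cdc5, against 6.19%, 1.72% and 2.84% in Col-0. It uses an acceptor 3 bases upstream of that of AT1G12430.1, so that its intron has 64 in place of 67 bases and its coding region 1 codon more. Its ends also differ from those of AT1G12430.1, by 31 bases at the 5′ end and 156 at the 3′ end. It rose by 2.65 (SE 0.24, adjusted p = 0.0014), and AT1G12430.1 fell by 0.44 (SE 0.08, adjusted p = 0.011). AT5G47820.1 of KIN4A, which keeps the 89-base last intron in the 3′ untranslated region, carried 35.5%, 25.3% and 47.1% in cdc5, against 14.5%, 14.3% and 11.8% in Col-0. No cdc5 library reached down to a Col-0 library, although the cdc5 libraries differed among themselves. It rose by 1.44 (SE 0.21, adjusted p = 0.0059), and the coding regions of both KIN4A transcripts have 3108 bases.

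**Figure D5:**
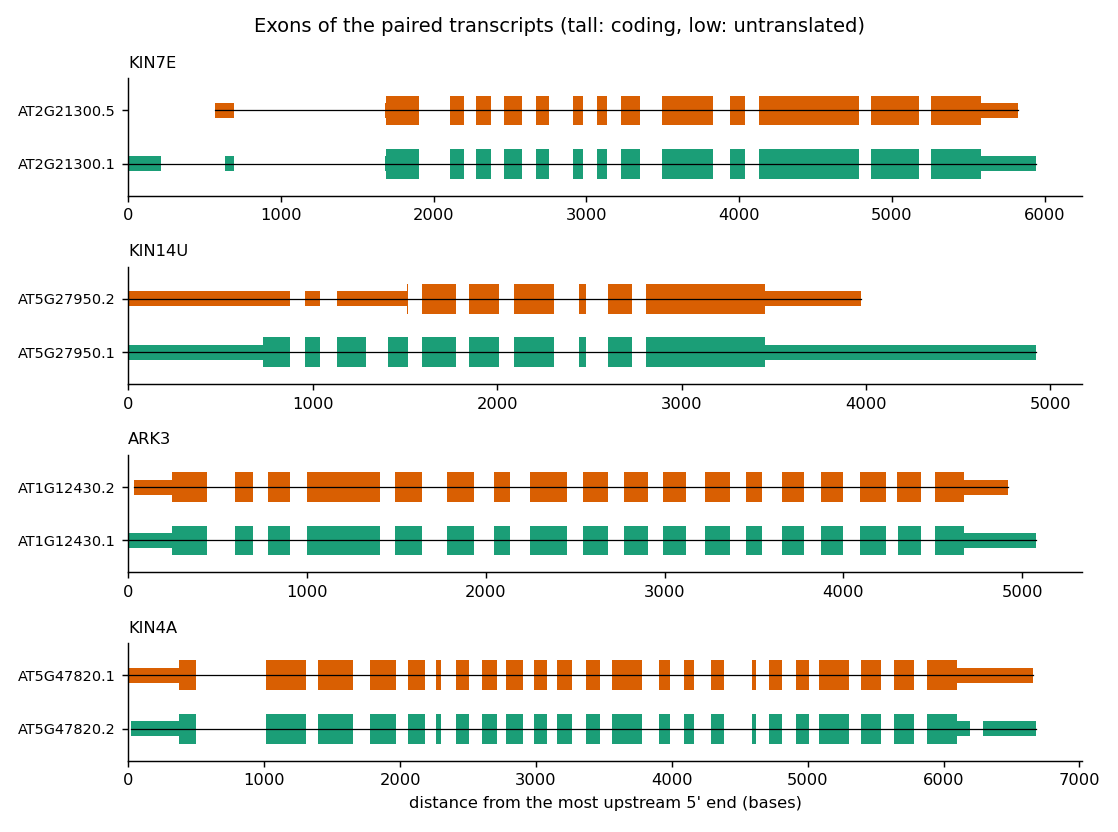
Exons of the paired transcripts of KIN7E, KIN14U, ARK3 and KIN4A in TAIR10.1, by distance in bases from the most upstream 5′ end, with tall boxes for coding and low boxes for untranslated exons. The KIN14U pair differs in the retained 118-base intron and the 3′ end, the KIN7E pair in the 5′ leader, the KIN4A pair in the 89-base last intron, and the 3-base difference of ARK3 is too small to see.

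The remaining usage changes were small. AT5G10470.2 of KCA1, with an acceptor 3 bases upstream of that of AT5G10470.1, carried 57.4% ± 1.5 in cdc5 and 50.8% ± 3.2 in Col-0 (SD, n = 3 each). AT5G66310.1 of KIN7H, a kinesin-7, carried 22.6% ± 5.5 in cdc5 and 15.0% ± 1.1 in Col-0. Both usage calls were lost without Col-0 replicate 2 or 3 (adjusted p = 0.061 and 0.088 for KCA1, 0.067 and 0.11 for KIN7H). The call of KCA1 was also lost without cdc5 replicate 2 or 3 (adjusted p = 0.099 and 0.086) and that of KIN7H without Col-0 replicate 1 (adjusted p = 0.12). The usage calls of ARK3, KIN14U, KIN7E and KIN4A held in every alternative run, with adjusted p up to 0.0017, 0.0013, 0.0050 and 0.016. No kinesin gene shared a run of 75 bases with another, so copies within the family do not mix reads of that length. Some shared such runs with genes outside the family, and their part was not tested. KIN14D shared 309 of 3246 with CRK25 and AT2G22610 shared 204 of 3538 with AT2G07805. KIN8B shared 72 of 3168 with AT3G49645, on the same strand, which averaged 7.71 FPKM in cdc5 and 7.14 FPKM in Col-0. KIN12E and KIN7O also shared runs with a gene that overlaps them. Overlap with another listed gene was found for 10 kinesin genes. The most highly expressed such partner was THI2.1, which covers 24 bases of AT1G72250 and averaged 360 FPKM in cdc5 and 238 FPKM in Col-0.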

How the data were processed

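RNA-seq of 6 libraries was used, 3 of cdc5 and 3 of Col-0, grouped by their genotype label, with replicate numbers from the titles. Per the labels' protocols, polyadenylated RNA was sequenced as read pairs from libraries that keep the strand. Strand use in counting, and the sharing of fragments among transcripts, are not stated in what was used here. Tools listed in the submitters' processing notes, with no roles, are StringTie 1.3.4d, HISAT2 2.0.4, cutadapt 1.9, edgeR and DESeq2. The notes give a mouse build that cannot apply to this table, and 99.6% of the 45072 transcripts found in the TAIR10.1 annotation (of 45666 listed) had the same span there.

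The authors deposited FPKM per transcript, with a fold column (the ratio of mean FPKM, cdc5 over Col-0), its log2 and p-value and q-value columns from an unnamed test. Gene levels were summed and tested with limma 3.58.1 in R 4.3.3 on log2(FPKM + 1), with trend and robust estimation, over genes with a mean of at least 1 FPKM. Fold changes on this scale understate changes of low genes. SEs are of log2 fold changes, and calls use Benjamini-Hochberg adjusted p under 0.05. The smallest p of an exact permutation test with 3 against 3 libraries is 0.1, so none was used. Fragment counts could not be recovered, since 59.7% to 64.3% of low values lay within 0.1 of a whole number of steps (20% with an unfitted step), and no count model was run. The length and GC adjustment subtracts, per library, a spline fit with 5 degrees of freedom on each. The test was checked on simulated data.

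The kinesin genes, the other lists and the rules were chosen with earlier results of these data known. Genes were named as CDC5, the 12 kinesin genes with the smallest adjusted p in each direction, the member with the smallest adjusted p and the one with the highest mean in each family, non-motors, usage calls, and, of each other list, 4 genes by smallest adjusted p. Further kinesins were named after their values were seen, to complete a family or function. Deviations of same-numbered libraries of cdc5 and Col-0 from their group means had correlations of 0.043, 0.059 and 0.004. Those of differently numbered libraries ran from -0.072 to 0.032. Values this small cannot decide whether the numbers pair the libraries. The main test left them unpaired, and a fit with the replicate number as a block is given below.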

Additional observations from a re-analysis of the deposited data

How the results depend on the processing

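Adjustment for length and GC content moved the results most. It left 11 kinesin genes higher and 10 lower, a median of -0.031, 13 named kinesin genes called, 9 kinesin transcripts higher and 9 myosin genes called. It also turned the sign of ARK3 (-0.055), KIN13A (-0.046), KIN14U (-0.031), KIN7H (-0.063) and XI-H (-0.029), and KIN5B became lower (-0.25). Without the filter on low values, 4 kinesin genes were lower, the median was 0.15 and 11 genes passed for usage. At 5 FPKM the median was 0.20 and 2 myosin genes were called, and cyclic loess scaling gave a median of 0.11. The fit with the replicate number as a block gave 24 kinesin genes higher and 2 lower, 12 kinesin transcripts higher, and no call for KIN14U and AT4G24175 or for the usage of KCA1 and KIN7H. The count of kinesin genes called for usage was 6 in that fit too, so the genes called were not all the same.

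Leaving out single libraries gave 21 to 24 kinesin genes higher, 1 to 2 lower, medians of 0.17 to 0.20, 13 to 16 transcripts higher, 16 to 18 named kinesin genes called, 2 to 4 myosin genes called and 4 to 6 usage calls. KIN7E, never called, ranged from -0.12 to 0.051, changing sign without Col-0 replicate 1 (0.051), cdc5 replicate 3 (0.012) or Col-0 replicate 3 (0.019). Over the named genes and alternatives run, 383 values kept their direction and side of the threshold, 38 lost the call, 1 gained it and 8 changed sign. With 3 libraries a group, no single outlying library could be tested for, and the largest SEs among the kinesin genes, 0.11 on the log2 scale, were those of KIN14P and AT4G24175, which lay at a few FPKM. Alternatives for isoform usage were added after the data were seen.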
